A study of Mus musculus with 9 samples.

Results

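CpG-dense sequence that is highly methylated in mouse embryonic stem cells (ESCs) was examined in cells of the J1 line. These were wild type cells (WT) and cells without *Dnmt3a* (3aKO) or without *Dnmt3b* (3bKO). The genome was divided into non-overlapping bins of 500 bp. A bin was taken when it held at least 25 CpGs with at least 3 reads in each of the 3 genotypes and when its mean methylation in WT was at least 70%. Of 21335 bins with at least 25 CpGs, 2740 met this rule, or 12.8%. They were 0.260% of the 1051930 bins with at least 5 CpGs. The bins were chosen by their CpG number and their WT level, so that WT levels and differences from WT are given as descriptions only, whereas no methylation level of either KO entered the rule.

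J1 ESCs are of the strain 129S4/SvJae and were grown in serum with LIF. The WT cells are labelled wild type, the 3aKO cells Dnmt3a-/- and the 3bKO cells Dnmt3b-/-, and the 9 libraries are named as biological replicates 1 to 3 of each genotype. Whether the libraries of a genotype came from separate clones is not given in the sources used here. Methylation was measured by whole genome bisulfite sequencing (WGBS), in which unmethylated cytosines are converted and then read as T, whereas methylated ones are still read as C. The authors pooled the 3 libraries of a genotype, so that each genotype is 1 pooled value, replicate error is not available and replicates could not be tested. In 3aKO ESCs 12 consecutive CpGs of *Dnmt3a* had no read, at chr12:3902401-3902801 of mm9, where the mean depth was 31.4 reads in WT. In 3bKO ESCs 30 consecutive CpGs of *Dnmt3b* had no read, at chr2:153502553-153504281, where it was 31.5 reads in WT. In WT the values used here stop on chromosome 4, and the bins lie on 13 whole chromosomes and part of chromosome 4. The median depth per CpG in the 2740 bins was 29.1 reads in WT, 25.3 in 3aKO and 27.4 in 3bKO ESCs.

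DNMT3A and DNMT3B place methylation on unmethylated CpGs, and DNMT1 copies it to the new strand after replication. Methylated cytosines mutate readily, so that most of the CpG-dense sequence that mammalian genomes keep lies in CpG islands, which are unmethylated and often hold promoters. CpG-dense sequence that is methylated includes young retrotransposons, whose transcription is held down by methylation, promoters of germline genes, the methylated allele at imprinted genes, and some islands inside genes.

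The methylated CpG-dense bins lay elsewhere than CpG-dense bins as a whole, most of which were unmethylated in WT. The methylated ones were intergenic in 62.8%, in introns in 17.2%, in coding exons in 12.8% and within 500 bp of a transcript start of a protein-coding gene in 3.80%, whereas 62.8% of all CpG-dense bins were within 500 bp of such a start. CpG-dense bins with WT from 30% to under 70% were placed more alike. Of these 52.7% were intergenic, 18.1% in introns, 16.2% in coding exons and 9.74% at such starts. The methylated CpG-dense bins were also mostly repeated sequence. For each bin the copies of its 31-mers in the mm9 reference, on both strands, were counted, and a bin was called repeated when the median over its 31-mers was above 1 copy and single-copy when it was 1. By this count 2189 of the 2740 bins, or 79.9%, were repeated and 551 were single-copy. Among CpG-dense bins with WT methylation under 30% the repeated share was 2.75%, and among those from 30% to under 70% it was 64.8%. Single-copy bins lay in coding exons in 59.0% and at promoters in 12.3%, whereas repeated bins were intergenic in 74.9%. The median observed over expected ratio of CpG was 0.665 in single-copy and 0.796 in repeated bins.

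The repeated bins fell into few families. Bins that shared at least 10% of the 31-mers of the smaller of the pair were linked, and 1971 bins, or 71.9%, lay in 5 families of at least 80 bins, including 5 single-copy bins. No repeat annotation was used here, so that the families are called by their number and shown by the 31-mer that the largest number of their bins carry, so that the sequence behind each number can be seen. Capitals mark the CpGs, the letters run 5′ to 3′ on the plus strand of mm9, and each line gives 1 place of the sequence.

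Family 1 at chr1:5800240-5800270: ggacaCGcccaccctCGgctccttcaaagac
Family 2 at chr1:5420060-5420090: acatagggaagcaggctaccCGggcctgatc
Family 3 at chr1:87372629-87372659: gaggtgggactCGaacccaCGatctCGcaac
Family 4 at chr1:19789627-19789657: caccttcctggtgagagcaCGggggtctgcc
Family 5 at chr1:23789292-23789322: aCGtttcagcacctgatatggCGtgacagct

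Family 1 held 1225 bins, and its 31-mer occurred 1552 times in the reference and in 29.1% of the family's bins. Family 2 held 366 bins, and its 31-mer occurred 4772 times and in 94.8% of its bins. In family 2 part of the copies lay in tandem. Its 31-mer had 3056 sites on the chromosomes used, with 1650 neighbouring copies on the same strand within 10 kb. Of these 1615 lay within 500 bp of each other, and the median spacing was 208 bp. Family 4, with 110 bins, also had part of its copies in tandem. It had 616 sites and 291 such neighbouring copies, with a median spacing of 206 bp. Family 3 held 184 bins, and its 31-mer had 260 sites. Of its 120 neighbouring copies 117 lay within 500 bp of each other, and the median spacing was 38.0 bp. Family 5 held 86 bins, and only 34 neighbouring copies of its 31-mer lay within 10 kb, at a median spacing of 3783 bp.

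The single-copy bins are exemplified by those at the starts of *Hsf2bp*, *Son*, *Ptprf* and *Ipmk*. These 4 were chosen for the lowest, the median and the highest methylation in 3aKO and the lowest in 3bKO ESCs among the protein-coding genes with a single-copy bin at a start and no Gm or Rik symbol, and each line shows the 300 bases of the bin with the most CpGs, in capitals, on the plus strand of mm9.

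*Hsf2bp* at chr17:32171200-32171499: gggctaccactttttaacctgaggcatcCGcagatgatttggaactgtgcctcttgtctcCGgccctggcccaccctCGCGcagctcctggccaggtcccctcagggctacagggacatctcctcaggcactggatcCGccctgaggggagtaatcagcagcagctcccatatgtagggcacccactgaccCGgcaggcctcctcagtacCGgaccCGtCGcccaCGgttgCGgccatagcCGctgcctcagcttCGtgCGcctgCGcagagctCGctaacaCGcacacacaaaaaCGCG
*Son* at chr16:91660194-91660493: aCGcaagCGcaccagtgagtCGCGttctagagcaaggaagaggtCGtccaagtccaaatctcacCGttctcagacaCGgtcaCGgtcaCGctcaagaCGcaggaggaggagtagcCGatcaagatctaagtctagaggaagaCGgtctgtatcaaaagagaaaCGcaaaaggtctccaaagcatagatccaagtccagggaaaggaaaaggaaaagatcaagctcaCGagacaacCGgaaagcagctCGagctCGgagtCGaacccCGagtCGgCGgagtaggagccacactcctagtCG
*Ptprf* at chr4:117908588-117908887: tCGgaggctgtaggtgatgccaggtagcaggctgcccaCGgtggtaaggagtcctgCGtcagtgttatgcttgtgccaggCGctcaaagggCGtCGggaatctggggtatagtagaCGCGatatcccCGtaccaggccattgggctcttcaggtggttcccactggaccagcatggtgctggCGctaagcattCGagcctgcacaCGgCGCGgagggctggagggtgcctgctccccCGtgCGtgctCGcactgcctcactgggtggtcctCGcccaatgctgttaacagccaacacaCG
*Ipmk* at chr10:70844161-70844460: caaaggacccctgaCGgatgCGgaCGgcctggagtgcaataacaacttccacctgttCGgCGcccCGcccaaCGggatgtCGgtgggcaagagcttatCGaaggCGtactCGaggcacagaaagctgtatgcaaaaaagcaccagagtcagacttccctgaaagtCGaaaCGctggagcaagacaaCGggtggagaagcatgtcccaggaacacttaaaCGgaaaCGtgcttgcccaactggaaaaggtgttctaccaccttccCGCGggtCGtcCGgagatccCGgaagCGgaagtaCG

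Across the 2740 bins the median methylation was 93.1% in WT, 74.9% in 3aKO and 88.9% in 3bKO ESCs. The bins ranged from the limit of 70% to 98.8% in WT, from 1.28% to 92.5% in 3aKO and from 18.4% to 99.6% in 3bKO ESCs. The lowest bin in 3aKO ESCs lay in a coding exon at chr13:35008501-35009000, with 72.4% in WT, 1.28% in 3aKO and 32.5% in 3bKO ESCs. Below WT by more than 20 percentage points were 1183 bins in 3aKO ESCs, or 43.2%, where the same held for 81.2% of all bins with at least 5 CpGs and 12.1% of CpG-dense bins. In 3bKO ESCs these were 551 bins, or 20.1%, against 6.65% of all bins and 6.77% of CpG-dense bins.

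The KOs were then compared with each other. 3bKO ESCs were more methylated than 3aKO ESCs in 2546 of the 2740 bins, or 92.9%, with a median difference of 11.9 percentage points. The same order held in 97.7% of all bins with at least 5 CpGs and in 65.6% of CpG-dense bins. A difference of more than 20 percentage points was used as the call, since replicate error was not available. By this call 597 bins, or 21.8%, were lower in 3aKO than in 3bKO ESCs. The same call was made for 67.4% of all bins with at least 5 CpGs and for 3.92% of CpG-dense bins, most of which were unmethylated in WT. The share in the methylated CpG-dense bins was thus below that of all bins and above that of CpG-dense bins. With 10 and 30 percentage points as the call the number was 1693 and 301 of the 2740 bins, or 61.8% and 11%. The shares of all bins and of CpG-dense bins at these limits are not given here, so that these counts have no background to be compared with. The opposite difference was called in 3 bins, or 0.109%, where the shares were 0.0241% of all bins and 0.0469% of CpG-dense bins. All 3 were repeated bins, and were named after their values were seen. They lay at chr1:9165501-9166000 and chr10:109453001-109453500 in family 2 and at chr2:149315501-149316000 in family 4. Their methylation in 3aKO ESCs was 63.1%, 71.7% and 57.4%, at depths of 12.4, 12.3 and 6.31 reads. In 3bKO ESCs it was 42.5%, 51.5% and 35.6%, at depths of 12.5, 12.9 and 20.2 reads.

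Single-copy and repeated bins differed in both KOs. In the single-copy bins the median was 89.8% in WT, 41.2% in 3aKO and 73.1% in 3bKO ESCs. Among the repeated bins it was 93.6%, 77.7% and 89.9%. The single-copy bins spread widely without DNMT3A, with quartiles of 24.2% and 58.7%, whereas the quartiles of the repeated bins were 63.9% and 81.7%. 3bKO exceeded 3aKO ESCs by a median of 27.6 percentage points in single-copy and 10.5 in repeated bins. The call of more than 20 percentage points was made in 395 of 551 single-copy bins, or 71.7%, and in 202 of 2189 repeated bins, or 9.23%. The share in the single-copy bins was near that of the 947205 bins with 5 to 24 CpGs and WT of at least 70%, at 71.4%.

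**Figure D1:**
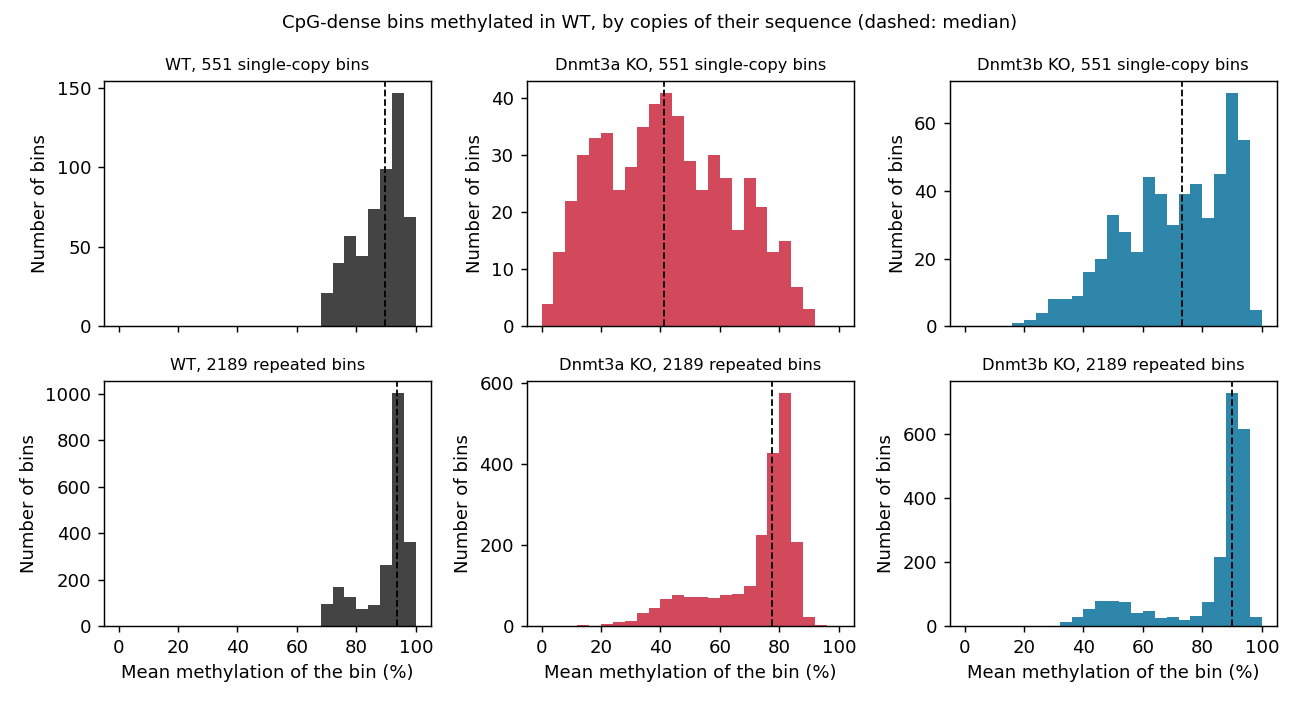
Number of bins (y axis) by mean methylation of the bin in percent (x axis) in each genotype, for the 551 single-copy bins (top) and the 2189 repeated bins (bottom), with dashed lines at the medians. Single-copy bins spread from 1.28% to 91.2% in 3aKO ESCs, whereas repeated bins form a narrow peak near their median of 77.7% with a tail toward lower values, and in 3bKO ESCs a second, smaller group near 50%.

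The groups differ in depth as well as in sequence. The median depth in 3aKO ESCs was 20.9 reads in single-copy and 27.4 reads in repeated bins, and a read of repeated sequence can belong to another copy, so that values of repeated bins can be averages over copies. How reads with several places in the genome were treated is not given in the sources used here, and its part in the levels was not tested. In 3aKO ESCs the medians were higher in bins with more copies. With more than 1 and up to 2 copies the median in 3aKO ESCs was 47.2% (43 bins), with more than 2 and up to 10 copies 70.4% (105 bins), with more than 10 and up to 100 copies 77.4% (610 bins), and with more than 100 copies 78.3% (1431 bins). In 3bKO ESCs these medians were 84.5%, 88.6%, 90.2% and 89.9%. The families did not keep this order, since family 2, with a median of 2209 copies, was at 47.8% in 3aKO ESCs and family 3, with 77.0 copies, at 80.4%. WT was also lower in single-copy bins. Among bins with WT of at least 90%, the median in 3aKO ESCs was 57.3% in 267 single-copy and 80.1% in 1545 repeated bins, and 61.7% in bins with 5 to 24 CpGs. With that limit the median difference between the KOs was 26.9 percentage points in single-copy bins, 11.4 in repeated bins and 26.6 in bins with 5 to 24 CpGs.

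The families did not share one pattern. Their division depends on the link, since with 5% of shared 31-mers in place of 10% all 366 bins of family 2 join family 1, whereas with 20% and 30% both stay apart. Families 1, 3 and 5 stayed methylated in both KOs. Family 1 had a median of 94.8% in WT, 80.3% in 3aKO and 91.4% in 3bKO ESCs. In family 3 these were 93.7%, 80.4% and 91.5%, and in family 5 they were 93.6%, 75.3% and 89.1%. In family 1 the spread between bins was small, with quartiles of 77.5% and 82.8% in 3aKO ESCs. 3bKO exceeded 3aKO ESCs in 1224 of 1225 bins, or 99.9%, against 97.7% of all bins and 65.6% of CpG-dense bins. The difference passed 20 percentage points in 38 family 1 bins, or 3.10%. The same call was made for 67.4% of all bins and 3.92% of CpG-dense bins.

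Families 2 and 4 were low in both KOs. Family 2 had a median of 74.8% in WT, 47.8% in 3aKO and 50.3% in 3bKO ESCs. In family 4 these were 83.6%, 59.5% and 62.5%. The KOs were within 5 percentage points of each other in 180 of the 366 bins of family 2, or 49.2%. This held for 11.8% of all methylated CpG-dense bins, family 2 included, and for 5.70% of all bins with at least 5 CpGs. It held for 78.0% of CpG-dense bins, and for 47.6% of the repeated ones with WT from 30% to under 70%. 3bKO exceeded 3aKO ESCs in 223 bins of family 2, or 60.9%, with a median difference of 2.16 percentage points. The same order held in 97.7% of all bins with at least 5 CpGs and in 65.6% of CpG-dense bins. In repeated CpG-dense bins with WT from 30% to under 70% it held in 47.1%. Family 2 bins lie near the WT limit of the rule, which cuts through the family.

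**Figure D2:**
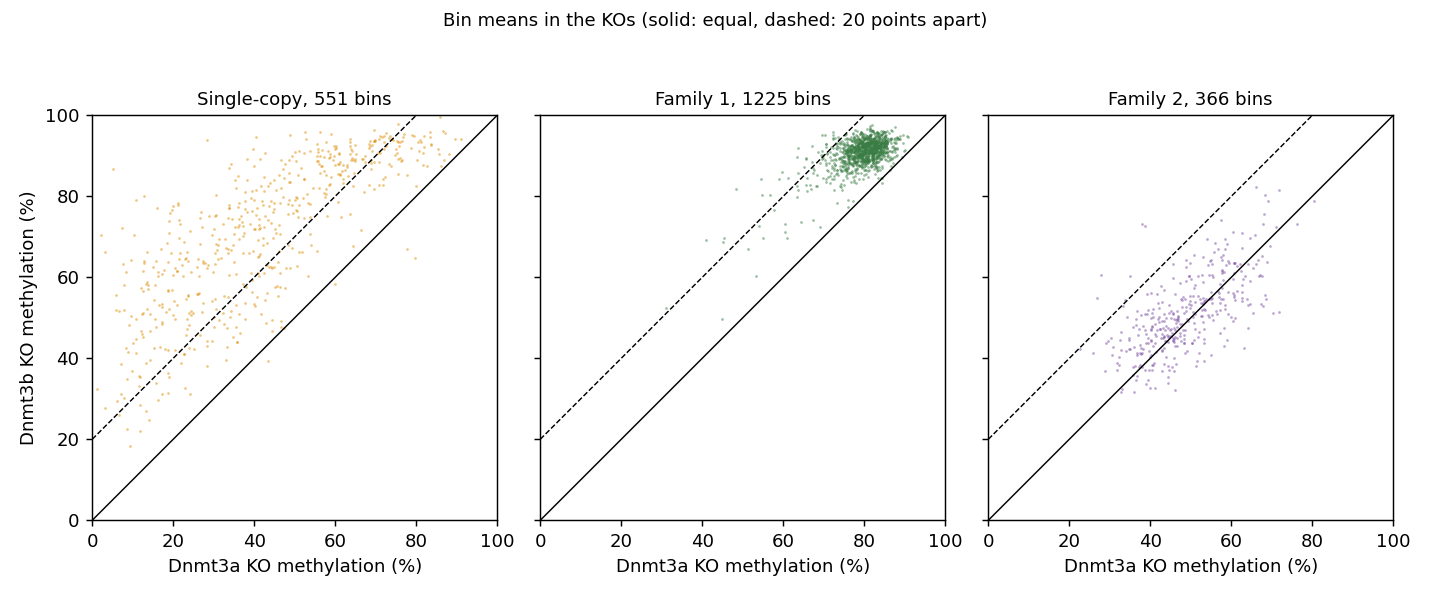
Mean methylation of each bin in 3aKO (x axis, percent) and 3bKO ESCs (y axis, percent) for single-copy bins, family 1 and family 2, with a solid line at equal values and a dashed line 20 percentage points above it. Single-copy bins lie mostly above the dashed line (395 of 551), family 1 lies in a dense group between the lines, and family 2 lies on both sides of the solid line.

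The families were also looked at in bins that are not among the 2740, taking those with at least 5 CpGs that carry the family's 31-mer, most of which had fewer than 25 CpGs. For family 1 these were 642 bins, with medians of 94.4% in WT, 77.2% in 3aKO and 90.4% in 3bKO ESCs. For family 2 they were 1620 bins, with 75.7%, 50.0% and 55.1%. For family 4 they were 367 bins, with 62.6%, 38.6% and 36.6%. 3bKO exceeded 3aKO ESCs in 176 of them, where this order held in 97.7% of all bins and in 65.6% of CpG-dense bins. For family 5 they were 156 bins, with 92.8%, 68.3% and 87.5%. In these bins families 2 and 4 were thus also lower than families 1 and 5 in 3bKO ESCs. Bins with at least 25 CpGs enter here only with WT under 70%, so that the WT limit still bears on that part of them. A read of a shared sequence can also belong to another copy, so that these bins are not independent of the 2740.

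The single-copy bins were next set beside CpG-poorer single-copy bins of the same WT limit, to see how the KO levels run with CpG number. Copies were counted in every bin with at least 25 CpGs and in every 50th of the others. Median methylation of single-copy bins in 3aKO ESCs was 58.0% with 5 to 9 CpGs, 54.5% with 15 to 19, 43.0% with 25 to 29 and 33.6% with 35 or more CpGs. In 3bKO ESCs it was 87.0%, 86.6%, 75.5% and 56.9%. WT was lower at the dense end too, with 92.9% at 5 to 9 and 83.4% at 35 or more CpGs. The median difference between the KOs was 28.2 percentage points at 5 to 9 and 27.8 at 35 or more CpGs, with the highest value of 32.3 at 20 to 24 CpGs (53 bins) and the lowest of 27.4 at 25 to 29 CpGs. With WT of at least 90% the 3aKO median was 60.8% with 5 to 9 and 47.5% with 35 or more CpGs, the latter over 7 bins. In repeated bins the 3aKO level ran the other way, from 63.7% with 5 to 9 to 78.8% with 35 or more CpGs.

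**Figure D3:**
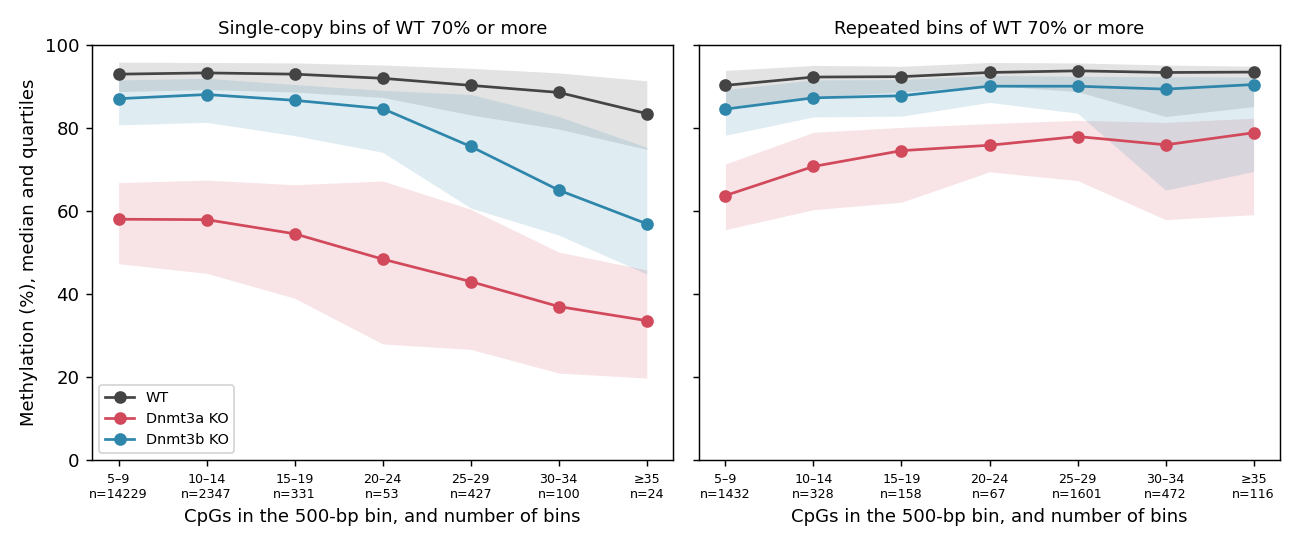
Methylation in percent (y axis) by the number of CpGs in the 500-bp bin (x axis, with the number of bins) for single-copy (left) and repeated bins (right) with WT of at least 70%. Points are medians over bins and shaded bands reach from the lower to the upper quartile. In single-copy bins both KO lines are lower at 25 or more CpGs than at 5 to 9, whereas in repeated bins the 3aKO line rises from 63.7% to 78.8%.

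The surroundings of the bins were compared as means over neighbouring bins up to 5 kb away. At single-copy bins the mean in 3aKO ESCs was 42.3%, and it was 49.5% and 50.8% in the bins 500 bp to the left and right. In 3bKO ESCs it was 70.8% at the bin and 77.3% and 79.2% beside it. The WT means were closer together, with 87.6% at the bin and 88.8% and 89.1% beside it, where the rule set a lower limit at the bin. Family 1 bins were higher than their surroundings, with 79.5% in 3aKO ESCs at the bin, 75.3% and 74.4% beside it and 64.4% and 63.8% at 5 kb. Family 2 bins were lower, and the dip was deepest in 3bKO ESCs, with 51.2% at the bin, 66.5% in the bin to its left and 82.3% and 79.3% at 5 kb.

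**Figure D4:**
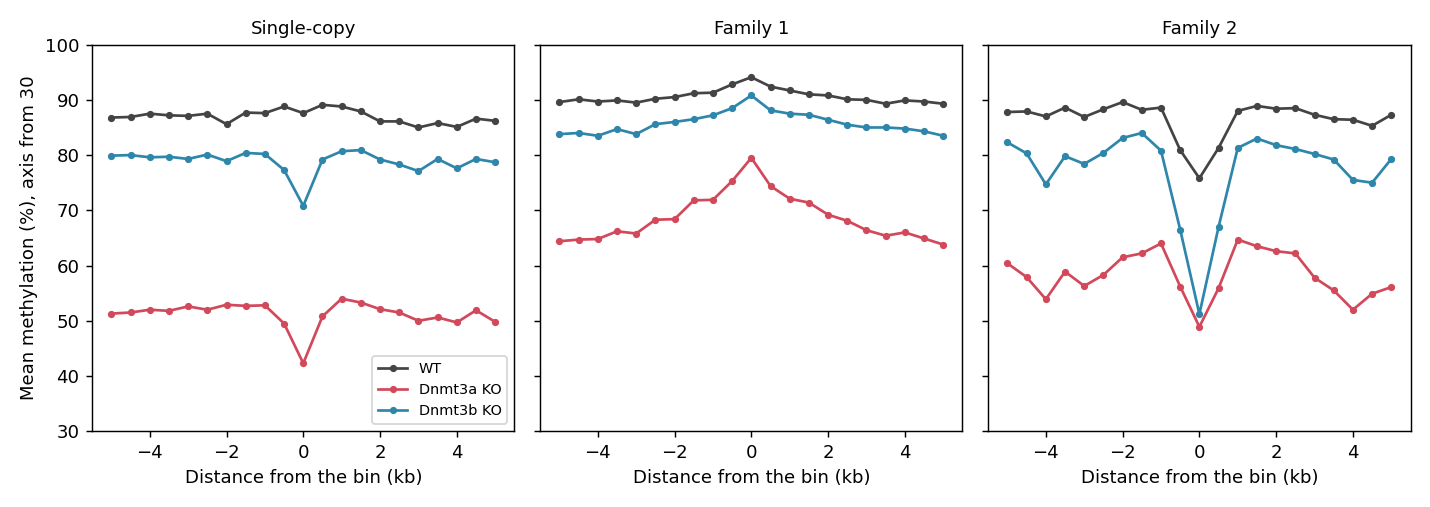
Mean methylation in percent (y axis, from 30) by distance from the bin in kb (x axis) for single-copy bins, family 1 and family 2, with 1 line per genotype and a point for each 500-bp step. 3aKO ESCs peak at family 1 bins (79.5%), and 3bKO ESCs fall to 51.2% at family 2 bins.

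Single CpGs were counted to see whether the levels are means of high and low sites. Of CpGs with at least 10 reads in single-copy bins, 77.5% had a level of 80% or above in WT, 12.8% in 3aKO and 47.8% in 3bKO ESCs. Under 20% were 27.4% of these CpGs in 3aKO and 5.83% in 3bKO ESCs. The other 59.7% in 3aKO ESCs were from 20% to under 80%. In family 1, 56.8% of CpGs in 3aKO and 89.6% in 3bKO ESCs stayed at 80% or more. In family 2 these were 6.51% and 10.6%, and 87.6% and 83.4% lay from 20% to under 80%.

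The levels also differed with the bases beside the CpG. Reads of both strands are listed apart, so that each cytosine was assigned the base before its CpG and the base after it, and shares of methylated reads were taken over all reads. In single-copy bins, CpGs followed by C were methylated at 39.7% in 3aKO and 74.5% in 3bKO ESCs, a difference of 34.8 percentage points. CpGs followed by A were at 47.2% and 69.4%, a difference of 22.2. The 2 KOs thus ordered these sites in opposite directions, whereas WT was at 87.6% and 88.2%. The smallest difference among the 16 combinations of bases before and after was at TCGA, with 52.5% in 3aKO and 61.8% in 3bKO ESCs. The largest was at ACGT, with 36.3% and 74.6%, followed by GCGC, with 39.6% and 77.0%. The 2 strands of a CpG have complementary neighbours, so that these combinations are not independent of each other, and bins that share a combination also share other sequence.

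In family 2 the difference varied in sign between combinations of both neighbouring bases. CpGs followed by C were more methylated in 3bKO than in 3aKO ESCs by 11.2 percentage points, at 59.3% and 48.1%, and CpGs preceded by G by 11, at 58.3% and 47.3%. In all 7 combinations with a C after or a G before the difference was above 0, from 7.88 to 16.3 percentage points. Of the other 9 combinations 6 were below 0, down to -11.3 at CCGG, and 3 were above 0, at 32.6 for ACGT, 10.6 for ACGA and 9.77 for TCGT. Combinations differed widely in depth, from 437 reads at CCGA to 58063 at TCGA in 3aKO ESCs, and ACGT, ACGA and TCGT had 1268 to 1337. In family 1 it was between 9.21 and 12.7 percentage points whichever base followed. Few distinct sequences make up each family, so that a base and its place in the repeat cannot be told apart.

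Coding exons held 351 bins, 325 of them single-copy. The 351 bins lay in 292 protein-coding genes, 41 of which had 2 or more, and the single-copy ones lay in 278 genes. The most bins were in *Ahnak2*, with 11, all repeated, followed by *Plec*. In 8 genes there were 3 single-copy bins each, with gene means from 35.8% to 76.0% in 3aKO and from 54.1% to 89.0% in 3bKO ESCs. Of these *Celsr1* and *Lrrc8a* are given as examples, chosen after their values were seen. *Plec*, which encodes the cytoskeletal linker plectin, had 9 single-copy bins with means of 88.9% in WT, 56.1% in 3aKO and 68.3% in 3bKO ESCs. The bins of *Plec* ranged from 33.4% to 81.7% in 3aKO ESCs, so that bins of 1 gene did not share a level. *Celsr1*, a cadherin of planar cell polarity, had 3 bins with 90.9%, 43.9% and 80.9%. *Lrrc8a*, a subunit of the volume-regulated anion channel, had 3 bins with 96.7%, 76.0% and 89.0%.

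Most bins stood alone. Of the runs of adjacent bins 2429 were single bins, 127 were pairs and 11 were longer. The longest was 15 bins at chr3:93089501-93097000, annotated as *Flg*, which encodes the skin barrier protein filaggrin as a chain of repeated units. Its mean was 93.3% in WT, 74.1% in 3aKO and 92.7% in 3bKO ESCs, with a median of 14 copies of its 31-mers. The next longest were 10 bins at chr12:114018001-114023000 and 7 bins at chr12:114014001-114017500, both in *Ahnak2*. Part of these bins were counted at a transcript start and not in coding exons. In these 2 runs 3bKO ESCs were lower, at 80.8% and 82.8%, and 3aKO ESCs were at 60.3% and 60.5%.

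Of 8244 protein-coding genes with a CpG-dense bin within 500 bp of an annotated transcript start, 90 had a methylated one, or 1.09%. These starts include internal ones and need not be the promoter in use. The 90 genes had 89 bins between them, and several annotated genes that are all named *Flg* are counted apart. Medians over the 90 genes' bins were 89.9% in WT, 38.7% in 3aKO and 74.4% in 3bKO ESCs, and 66, or 73.3%, were lower in 3aKO than in 3bKO ESCs by more than 20 percentage points, which is near the 71.7% of all single-copy bins and the 67.4% of all bins with at least 5 CpGs. A single-copy bin and a gene name were had by 60 of them. In 15 of the 60 the bin was under 20% in 3aKO ESCs, and in 9 it was under 50% in 3bKO ESCs. These shares, 25% and 15%, stand beside 18.5% and 14.9% of all single-copy bins. Shares of methylated reads with 95% Wilson intervals are given for these genes, which cover counting error only.

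The lowest in 3aKO ESCs was *Hsf2bp*, a partner of BRCA2 in meiotic recombination. Its bin was at 74.3% in WT (70.8 to 77.6), 8.03% in 3aKO (6.24 to 10.3) and 60.8% in 3bKO ESCs (57.1 to 64.4). The difference between the KOs was 52.8 percentage points, with a Newcombe interval of 48.5 to 56.8. *Aldoart2*, an aldolase retrogene of male germ cells, was at 91.6%, 11.1% and 78.5%, the widest gap among the 10 genes lowest in 3aKO ESCs. *Sall4*, a zinc finger factor of ESC self-renewal, was at 90.8%, 11.3% and 51.8%. *Grm4*, a metabotropic glutamate receptor, was at 81.6%, 13.2% and 60.4%. These 4 bins kept more than 50% methylation without DNMT3B and at most 13.2% without DNMT3A.

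Some starts were low in both KOs. *Ipmk*, an inositol phosphate kinase, was at 78.1% in WT (74.7 to 81.1), 9.14% in 3aKO (7.40 to 11.3) and 23.0% in 3bKO ESCs (19.9 to 26.4), the lowest of the named genes without DNMT3B. *Ly6k*, a surface protein of testis needed for fertility, was at 89.2%, 11.4% and 37.0%. *Lrrc10*, a protein of heart muscle, was at 71.7%, 10.5% and 42.7%. *D1Pas1*, a testis RNA helicase, had the smallest difference between the KOs among the named genes, 7.26 percentage points (2.49 to 12), at 75.7%, 25.3% and 32.6%.

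At the other end *Ptprf*, a receptor tyrosine phosphatase, was at 94.0% in WT (91.8 to 95.7), 79.7% in 3aKO (76.4 to 82.7) and 93.3% in 3bKO ESCs (91.2 to 94.9). *Polrmt*, the mitochondrial RNA polymerase, was at 97.9%, 72.5% and 87.3%, and *Unc5a*, a netrin receptor, was at 89.6%, 73.0% and 85.3%. In all 3 the 3bKO interval lay above the 3aKO interval.

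**Figure D5:**
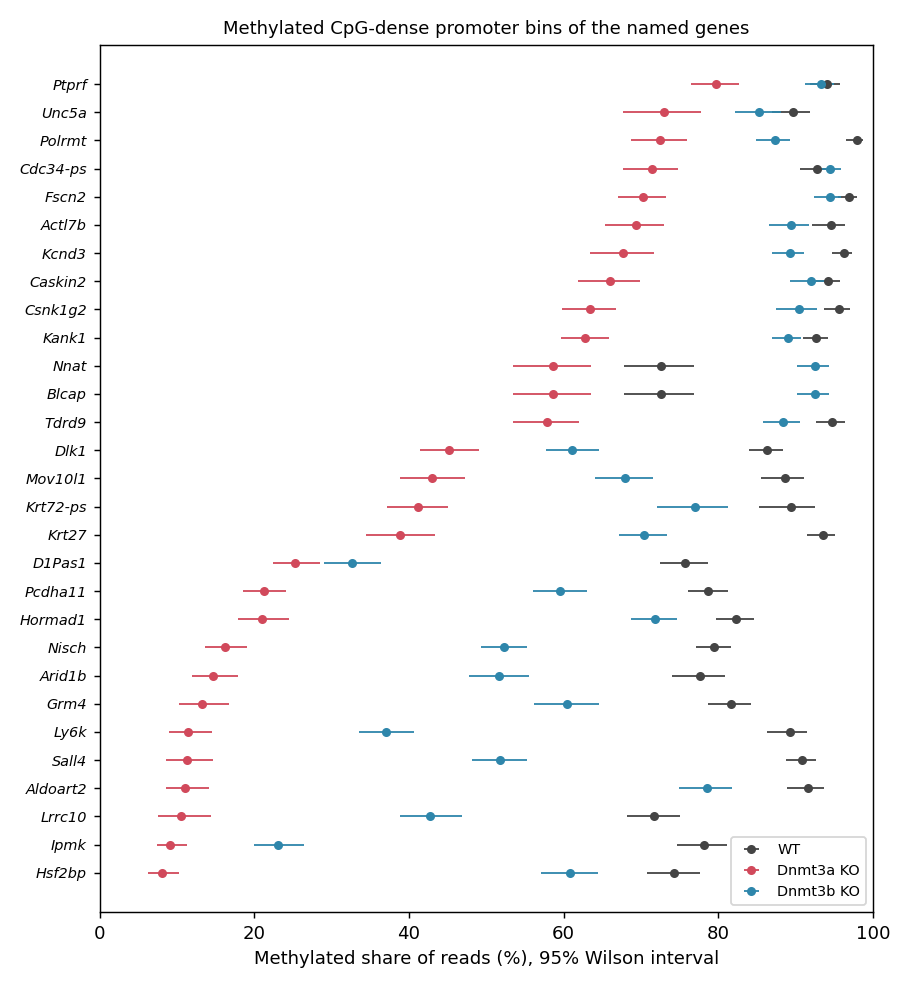
Share of methylated reads in percent (x axis) in the methylated CpG-dense bin at the start of 29 named genes (y axis, ordered by the 3aKO share), with 1 point per genotype and bars for the 95% Wilson interval. The 3aKO share is the lowest of the 3 genotypes in every gene shown, and at *Nnat* and *Blcap* the 3bKO interval lies above the WT interval.

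Gene groups were counted at the same starts. Of 22 germline genes with a CpG-dense start 6 had a methylated one, *Hsf2bp*, *Hormad1*, *Slc25a31*, *Dazl*, *Mov10l1* and *Tdrd9*. Medians were 83.6% in WT, 32.0% in 3aKO and 68.7% in 3bKO ESCs, and all 6 were lower in 3aKO than in 3bKO ESCs by more than 20 percentage points, a call made in 71.7% of all single-copy bins. *Hormad1*, a protein of meiotic chromosome axes, was at 82.3%, 21.0% and 71.8% by reads. *Tdrd9*, a helicase of the piRNA pathway, was at 94.7%, 57.8% and 88.3%. Of 101 zinc finger genes (Zfp), 91 homeobox and related genes and 67 histone genes with a CpG-dense start, 0 had a methylated one, which is near the 1.09% of all protein-coding genes with such a start.

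Of 17 imprinted genes with a CpG-dense start 4 had a methylated one, *Dlk1*, *Nnat*, *Blcap* and the non-coding *Meg3*, where the share over all protein-coding genes was 1.09%. All 4 were lower in 3aKO than in 3bKO ESCs by more than 20 percentage points in their bin means, a call made in 71.7% of all single-copy bins. At *Dlk1*, a paternally expressed Notch ligand homologue, shares of reads were 86.3% in WT, 45.2% in 3aKO and 61.1% in 3bKO ESCs, and the KOs differed by 15.9 percentage points (10.7 to 21.0). Its mean over CpGs, on which the call rests, was 37.2% in 3aKO and 66.1% in 3bKO ESCs, a difference of 28.9, so that the call at *Dlk1* is made by the mean and not by the reads. *Nnat* lies in an intron of *Blcap*, and both share 1 bin. It was at 72.6% in WT (67.8 to 76.9), 58.6% in 3aKO (53.5 to 63.5) and 92.5% in 3bKO ESCs (90.1 to 94.3). This was the only named bin whose 3bKO interval lay above its WT interval, and that difference is a description since the rule used WT.

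Bins just inside and just outside the limits of the rule were set side by side. The 115 bins from 70% to under 72% in WT had medians of 40.7% in 3aKO and 45.4% in 3bKO ESCs, and the 117 CpG-dense bins from 68% to under 70% had 40.3% and 45.5%. The 551 bins with 25 CpGs had 75.1% and 88.9%, and the 713 bins with 24 CpGs and WT of at least 70% had 71.6% and 87.2%. The single-copy bins were spread over all 14 chromosomes, and their 3aKO median lay between 31.3% on chromosome 2 and 47.3% on chromosome 15. It was below the 3bKO median on each.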

How the data were processed

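The authors made WGBS libraries of J1 ESCs of the 3 genotypes in 3 replicates each. Their alignment was made with BSMAP at default settings on mm9, and BSeQC was used to take out end-repair bases, clonal reads and overlapping mates. They deposited counts of all and of methylated reads per CpG and strand from mCall of MOABS, without normalization, with the 3 replicates pooled. The deposited methylation ratio, a fraction from 0 to 1, is methylated over all reads. The treatment of reads with several genomic places is not given in the sources used here. All listed positions were checked to be CpGs of the mm9 reference, with 0 failures. The WT table breaks off in its final row, which was dropped, and what follows position 140865857 of chromosome 4 was not analysed in WT.

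A bin level was the mean ratio over its CpGs of 3 or more reads. Copies of 31-mers were counted in the whole mm9 reference on both strands. Genes were from GENCODE on the same build. Python 3.11.15 with NumPy 2.4.6, SciPy 1.17.1, numba 0.67.0 and matplotlib 3.10.9 were used. A call was a difference of more than 20 percentage points. No test across replicates was made, and 95% Wilson and Newcombe intervals cover counting error only. Genes named were, among protein-coding genes with a single-copy bin at a start and leaving out Gm and Rik symbols, the 10 highest and 10 lowest in 3aKO, the 5 lowest in 3bKO and up to 4 of each gene list, of which the text gives a part and the plot all but 1, which is not reported here. Other lists gave 1 of 2 protocadherins (*Pcdha11*), 1 of 2 olfactory receptors (*Olfr268-ps1*, a repeated bin of 1055 copies) and 2 of 6 keratins (*Krt72-ps* and *Krt27*) with a CpG-dense start, where the share over protein-coding genes was 1.09%. The bins, lists and groups were chosen with earlier results of these data known. The alternatives covered read minimum, weighting, bin position, CpG and WT limits, depth, copies and strand. The families' link and leaving out promoters were added after seeing the data.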

Additional observations from a re-analysis of the deposited data

How the results depend on the processing

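No paired analysis was possible because each genotype is 1 pooled table, and no replicate could be left out for the same reason. The median difference between the KOs stayed above 0 in all 11 alternatives tried for it, and 0 values reversed. Values outside the 95% interval of the median over bins, or past 1.5 times the count, follow, and beyond the alternatives' own choice of bins or reads the cause was not tested. That interval treats bins as independent, though bins are not replicates and families share sequence, so that it only sorts the values.

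With at least 5 reads per CpG the medians were 75.7% in 3aKO and 89.2% in 3bKO ESCs. With at least 10 reads there were 1691 bins, with 77.4% and 90%. Of these 355, or 21.0%, were lower in 3aKO ESCs by more than 20 percentage points. As reported this share was 21.8%, beside 67.4% of all bins and 3.92% of CpG-dense bins. Shares over all bins at the alternative settings are not given here. With at least 30 CpGs there were 712 bins, with 72.3%, 88.1%, a median difference of 11.4 and 154 called, or 21.6%. With WT of at least 80% the medians were 77.8% and 90.2% and the difference 12.5. With depth within 0.5 to 2 times the median the 3aKO median was 73.8% and the difference 12.6. Weighting by reads gave a difference of 11.7. Single-copy bins alone, 551 in all, gave 41.2%, 73.1%, a difference of 27.6 and 395 called, or 71.7%. Plus strand reads gave 1972 bins, 75.8%, 89.2%, a difference of 11.3 and 345 called, or 17.5%. Minus strand reads gave 1163 bins, 76.7%, 90.3%, a difference of 13.1 and 324 called, or 27.9%. With 10 and 30 percentage points as the call, 1693 and 301 bins were called, or 61.8% and 11%, with no share over all bins at these limits to set beside them. With WT of at least 90% the 3aKO medians at 5 to 9 and at 35 or more CpGs were 60.8% and 47.5% in single-copy and 67.1% and 80.9% in repeated bins. The range of the difference over the 16 base combinations was 22.0 percentage points in all bins and 29 in single-copy bins. Linking the families at 5% of shared 31-mers put 1596 bins in family 1, with 78.8% and 90.3%, among them all 366 of family 2, which is then not set apart. Between the strands, the level of a bin differed by a median of 3.00 percentage points in WT, 6.28 in 3aKO and 4.04 in 3bKO ESCs, and the part of counting error in this was not tested.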

Other observations

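The chromosomes for which WT was not analysed hold 10101 further CpG-dense bins. The families were looked for there by their 31-mer alone, in bins with at least 5 CpGs and not only in CpG-dense ones. In 524 bins with the family 1 sequence the median was 78.4% in 3aKO and 90.9% in 3bKO ESCs, and 3bKO was higher in 520. In 811 bins with the family 2 sequence it was 56.2% and 62.0%, and 3bKO was higher in 541. For family 5 it was 66.0% and 88.8% in 75 bins, with 3bKO higher in all 75. On the chromosomes analysed in WT, 3bKO was higher in 97.7% of all bins with at least 5 CpGs and in 65.6% of CpG-dense bins. These shares are not given here for the other chromosomes. The lowest 3bKO median among the 5 families was that of family 4, at 47.5% over 312 bins. A read of a shared sequence can belong to a copy on another chromosome, so that these bins are not independent of those described above.

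Of non-coding genes 62 had a methylated CpG-dense start, 44 of them pseudogenes. Their share among non-coding genes with any CpG-dense start is not given here. Some of the 62 share a bin with each other or with a protein-coding gene. The bin means ran from 8.82% to 92.5% in 3aKO ESCs. The lowest, *Rpl13-ps1*, named as a pseudogene of a ribosomal protein gene, was at 84.2% of reads in WT, 8.89% in 3aKO (7.18 to 11) and 39.7% in 3bKO ESCs (36.4 to 43.0).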
